A study of Drosophila melanogaster with 16 samples.

Results

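The microRNAs (miRNAs) of the Drosophila Hox complexes are described here in total small RNA of whole flies. They were taken as the entries named miR-10, miR-iab-4 or miR-iab-8 in a table of reads of 19 to 25 nt, and where both arms of a hairpin were listed, the arm with more reads over all libraries was kept. This gave 3 entries and 2 kept miRNAs, miR-10-3p and miR-iab-4-5p, of 209 miRNAs and 340 features (miRNAs, transposons and others) in the table. miR-10-3p was kept over miR-10-5p, with 1736530 against 525082 reads summed over 16 libraries, and miR-iab-4-5p had 4931 reads. No entry named miR-iab-8 was found in that table, so miR-iab-8 was not analysed here.

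The flies were wildtype (wDah, a white-eyed stock in the outbred Dahomey background) or dFOXO-null (wDah;dfoxo{delta}94, a deletion of the gene for the transcription factor dFOXO backcrossed into wDah), so that every group shared the wDah background. Females and males were young (5 days in replicate 1 and 6 days in replicate 2) or old (31 days), which gives 8 conditions with 2 libraries each. Each library came from 40 whole adults that had been housed with the other sex at 25°C, and young and old flies of 1 genotype and replicate number were siblings. The comparisons ask whether the level, the balance of the hairpin arms and the length of these miRNAs differ with sex, age and the loss of dFOXO. In whole flies, fewer cells of a type and less of the miRNA per cell cannot be told apart.

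Hox genes encode transcription factors that give each segment of the fly its identity, and in Drosophila they lie in the Antennapedia and the bithorax complexes. A miRNA is cut from a hairpin precursor, and one or both arms are loaded into Argonaute proteins, where bases near the 5′ end, the seed, pair with target mRNAs. The miR-10 hairpin lies in the Antennapedia complex and is conserved across animals. The iab-4 and iab-8 hairpins are read from opposite strands of the same DNA in the bithorax complex, and in the fly both repress the Hox genes Ubx and abd-A. Ubx and abd-A give thoracic and abdominal segments their identity.

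In the fly annotation (BDGP6, the dm6 build), mir-10 lies on chromosome 3R from 6809506 to 6809582 on the minus strand. It falls in an exon of the noncoding gene lncRNA:CR42651 on the same strand. It is 7.077 kb from Dfd (Deformed) and 13.537 kb from Scr (Sex combs reduced), the Hox genes of head and first thoracic segments on either side of it, with 0 coding genes in between. The mir-iab-4 hairpin lies on chromosome 3R from 16856275 to 16856342 on the plus strand, in an exon of lncRNA:iab4. mir-iab-8 has the same coordinates on the minus strand. The pair is 26.225 kb from abd-A and 70.869 kb from Abd-B, with 0 coding genes lying wholly in between. It lies within introns of lncRNA:iab8 and of the coding gene MSAmiP, both on the minus strand, so that MSAmiP extends into the gap on either side. Of 22 names of Hox complex genes and transcripts looked up, 18 were in the annotation. None of these 18 (0) was found by transcript identifier among the 2303 transcripts in a further table, of small RNA reads mapped to dm6 transcripts. How many of the 2303 identifiers occur in the annotation was not counted, so the 0 does not show that Hox transcripts lack reads. Levels of Hox mRNA were not measured.

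Total mapped reads per library, without spike-ins, ranged from 596871 to 15259153. The 4 old libraries of replicate 2 had between 596871 and 1428060 reads, fewer than any other library. Spike-in reads were 0.00175 to 0.0163% of mapped reads in young libraries and 0.00403 to 0.150% in old ones. The labelled sexes fitted the gonad markers. The 3 ovary miRNAs miR-318-3p, miR-994-5p and miR-989-3p summed to 1.27 to 4.77% of mapped reads in females and to 0.0106 to 0.154% in males, whereas the 4 listed testis miRNAs of 8 looked for summed to 0 to 0.00153% in females and to 0.00967 to 0.0305% in males.

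miR-10-3p was among the abundant miRNAs of the whole fly. Its mean level of 1.97% of mapped reads ± 0.774 (SD, n = 16 libraries) ranked 11 of 209 miRNAs, and its rank in single libraries ran from 6 to 15. miR-10-5p, from the other arm, was at 0.631% ± 0.242 (SD, n = 16) and ranked 21. miR-iab-4-5p was far rarer, at 0.00942% ± 0.0124 (SD, n = 16) and rank 94, with 19 to 970 reads in a library. The SD of miR-iab-4-5p exceeded its mean, which was not the case for either arm of miR-10.

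**Figure D1:**
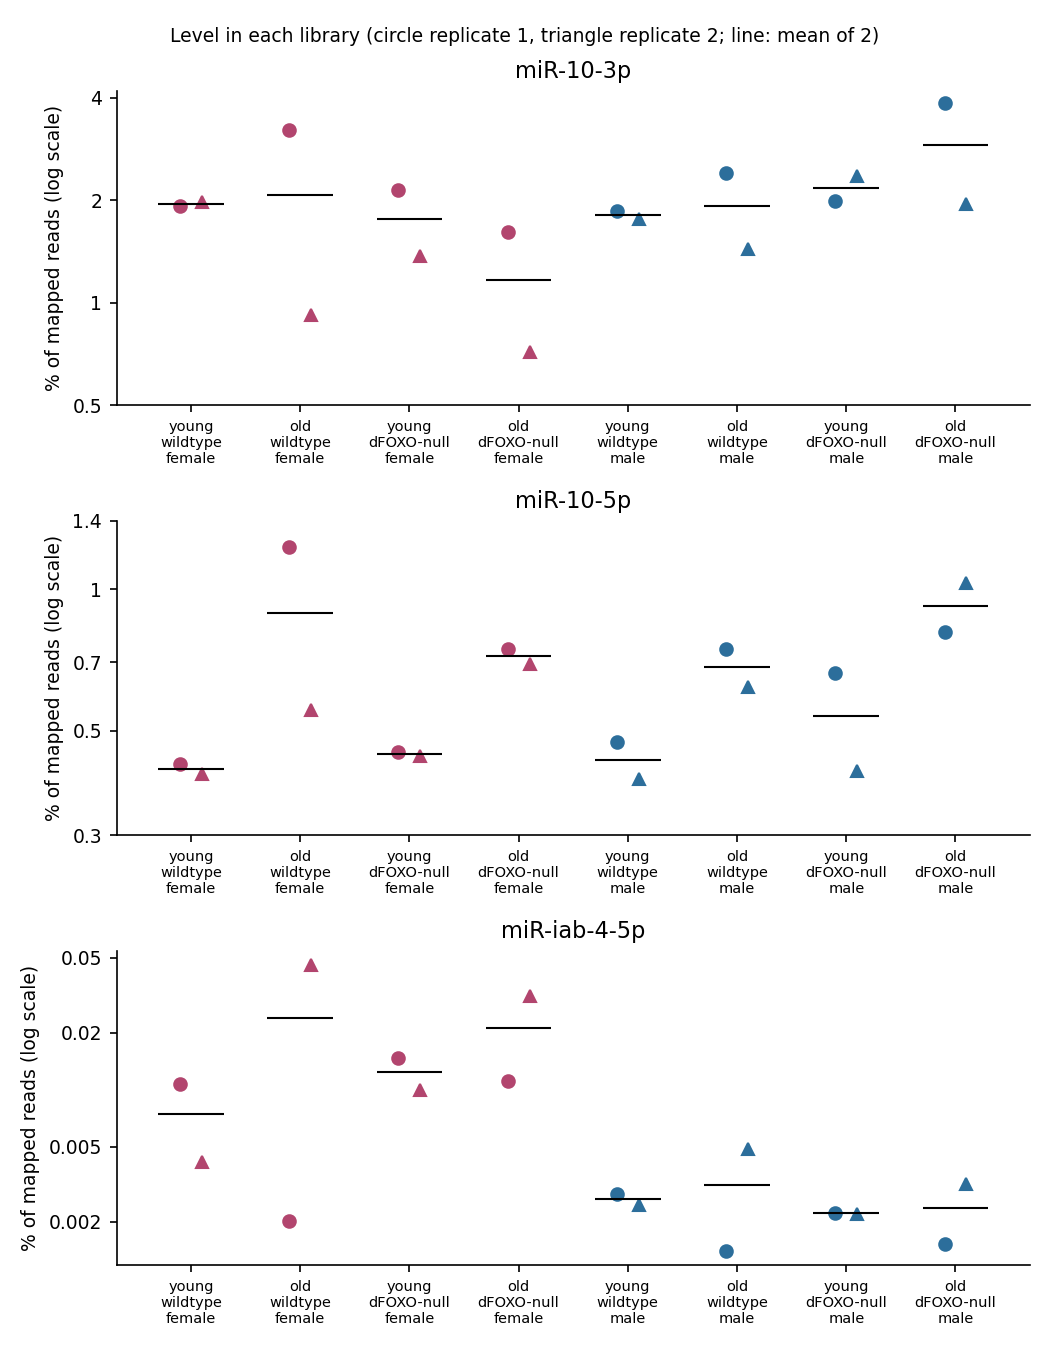
Level of miR-10-3p, miR-10-5p and miR-iab-4-5p in each of 16 libraries, as a percent of mapped reads on a log axis, by age, genotype and sex (females red, males blue; circle replicate 1, triangle replicate 2; line, mean of 2 libraries). miR-iab-4-5p lies between 0.00201 and 0.0458% in females and between 0.00140 and 0.00489% in males, while miR-10-3p spreads most among old flies, from 0.717 to 3.86%.

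miR-10-3p held a narrow range in young flies. It made up 1.92 and 1.98% of mapped reads in young wildtype females and 1.87 and 1.76% in young wildtype males (replicates 1 and 2). Young dFOXO-null females had 2.14 and 1.38%, and young dFOXO-null males 1.98 and 2.36%. In old flies the replicates of every condition stood apart, with replicate 1 above replicate 2. Old wildtype females had 3.22 and 0.922%, and old wildtype males 2.41 and 1.43%. Old dFOXO-null females had 1.62 and 0.717%, and old dFOXO-null males 3.86 and 1.95%. The conditions ran from old dFOXO-null males at the top to old dFOXO-null females at the bottom, and no neighbours in that order differed beyond their spread.

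No difference by age was called for miR-10-3p. Averaged over sex and genotype, its change from young to old was 0.00 on the log2 scale (SE 0.30, adjusted p = 1.00, edgeR quasi-likelihood test over 330 features), in a comparison where 10.6% of all features and 15.4% of miRNAs were called. This was 35 features, and 62 with the replicate number as a block. Behind this mean lay opposite directions in the replicates. Among sibling flies, miR-10-3p was lower in old than in young in 4 of 4 pairs of replicate 2 (ratio 0.466 to 0.826) and higher in 3 of 4 pairs of replicate 1 (ratio 0.755 to 1.94). Whether the replicates differ in this was not tested.

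Neither sex nor genotype gave a called change of miR-10-3p. Females were at −0.35 against males (SE 0.30, adjusted p = 0.328, edgeR). The comparison by sex called 63.3% of all features and 45.2% of miRNAs, and the median miRNA was itself at −0.16. In simulated counts, averaged sex differences of 4-fold were called for 19 of 20 features and of 2-fold for 5 of 20. The simulation left 270 of 330 features unchanged by sex, of which 5 were called. It held no age or genotype differences and no shifts shared by libraries of a replicate. Its rates therefore do not give the power of the real test, where 63.3% of features were called. The level was lower in females in both pairs of old dFOXO-null flies (1.62 against 3.86% and 0.717 against 1.95%, log2 change −1.31, SE 0.62, adjusted p = 0.0910 with edgeR), where 50.9% of features were called. When the fit held the replicate number as a block, this last difference was called (−1.33, adjusted p = 0.0307), as it was with DESeq2 (−2.36, adjusted p = 0.0107). It was called in 0 of 4 fits that left out 1 of these libraries (−2.02 without the females of replicate 1, −1.72 without the males of replicate 2, −0.84 without the females of replicate 2 and −0.74 without the males of replicate 1), and it turned to 1.21 when scaled by spike-in reads. The dFOXO-null flies were at −0.03 against wildtype (SE 0.30, adjusted p = 0.964, edgeR), where 2.42% of features and 2.40% of miRNAs were called.

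The choice of library size moved the result by sex. Females carried a larger share of reads on transposons and other features than males, and miRNAs made up 76.5 to 90.4% of mapped reads in females and 98.2 to 99.6% in males. When libraries were scaled by TMM (trimmed mean of M-values) the sex difference of miR-10-3p became −1.49 (adjusted p = 0.00605, edgeR), but the median of all miRNAs moved with it, to −1.38. With DESeq2 size factors the pair of values was −1.52 and −1.5. Relative to the median miRNA, miR-10-3p thus lay 0.19, 0.12 and 0.02 lower in females under the 3 scalings. When spike-in reads set the library size, its difference turned to 0.74, which was 0.09 above the median miRNA.

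miR-10-5p was higher in old than in young flies in 8 of 8 sibling pairs, by 1.22 to 2.89 times. In young flies it made up 0.425 and 0.405% of mapped reads in wildtype females, 0.474 and 0.394% in wildtype males, 0.452 and 0.442% in dFOXO-null females and 0.665 and 0.410% in dFOXO-null males. In old flies the same conditions had 1.23 and 0.554%, 0.745 and 0.619%, 0.748 and 0.694%, and 0.811 and 1.03%. The ranges overlapped only through young dFOXO-null males of replicate 1, at 0.665%, which lay above old wildtype females and old wildtype males of replicate 2. The averaged log2 change was 0.80 (SE 0.24, adjusted p = 0.0487, edgeR), while the median miRNA changed by 0.40 and 11.1% of miRNAs were called as higher in old flies. This call sat at the threshold. It was kept in 3 of 16 fits that left out 1 library (old wildtype females of either replicate, or old dFOXO-null males of replicate 1), and lost with TMM (0.39, adjusted p = 0.535) and DESeq2 (0.32, adjusted p = 0.650), where the median miRNA was at −0.10 and −0.22. When spike-in reads set the library size, the change turned to −1.81, and the median miRNA to −2.45. Markers of other tissues were looked at too. The muscle miRNAs miR-1-3p and miR-133-3p summed to 8.34 to 21.8% of mapped reads in young and to 1.30 to 11.2% in old libraries. By age miR-1-3p was called (−1.21, adjusted p = 0.0263, edgeR) and miR-133-3p was not (−0.81, adjusted p = 0.176, edgeR). miR-124-3p of the nervous system was not called either (1.78, adjusted p = 0.0820, edgeR). It was at 0.00334 to 0.00892% in young libraries. In old libraries it was at 0.00127 to 0.00898% in replicate 1 and at 0.0245 to 0.0440% in replicate 2. The part of these markers in the change of miR-10-5p was not tested. By sex (−0.08) and genotype (0.14) miR-10-5p had no called difference (adjusted p = 0.799 and 0.864, edgeR).

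The balance between both arms of miR-10 needs no library size, since it is read within a library. In young flies miR-10-3p had 2.98 to 5.75 times the reads of miR-10-5p, and in old flies 1.03 to 4.76 times. Put as the share of the 5p arm in all reads of the hairpin, this was 18.1 and 17.0% in young wildtype females, 20.3 and 18.3% in young wildtype males, 17.4 and 24.3% in young dFOXO-null females and 25.1 and 14.8% in young dFOXO-null males (replicates 1 and 2). In the old siblings it was 27.6 and 37.5%, 23.6 and 30.2%, 31.6 and 49.2%, and 17.4 and 34.7% in the same order. The share was thus higher in old flies in 7 of 8 sibling pairs, and the exception was dFOXO-null males of replicate 1. In old dFOXO-null females of replicate 2 both arms had nearly equal reads.

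**Figure D2:**
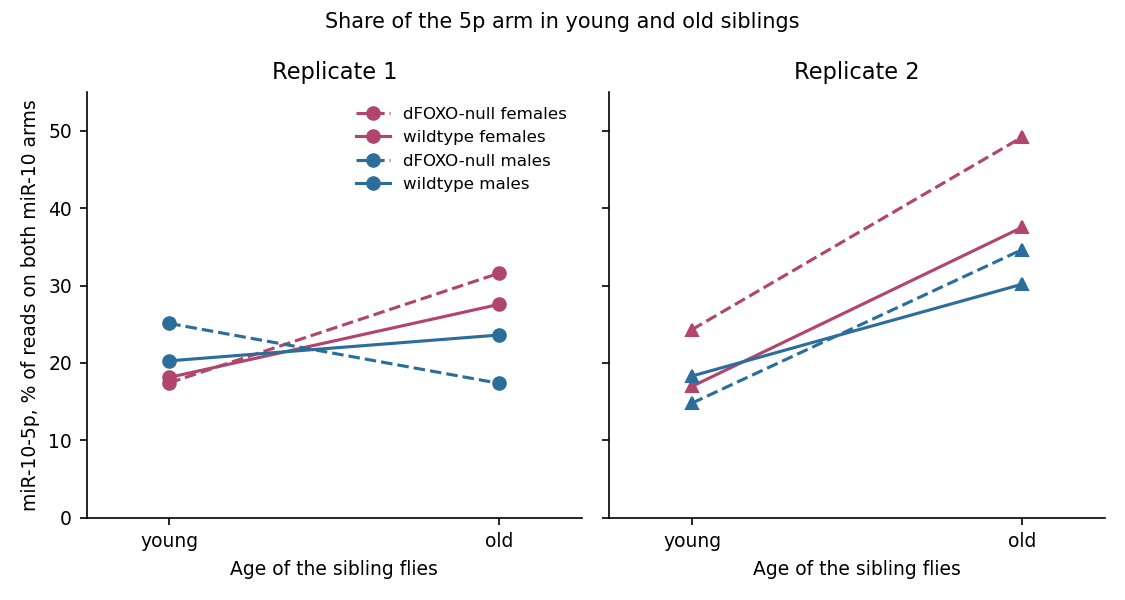
Share of miR-10-5p in all reads on both miR-10 arms (y axis, percent) in young and old sibling flies (x axis), replicate 1 on the left and replicate 2 on the right; each line joins 1 pair of libraries (females red, males blue; wildtype solid, dFOXO-null dashed). The share rises in 4 of 4 pairs of replicate 2, to between 30.2 and 49.2%, and in 3 of 4 pairs of replicate 1.

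The log2 ratio of miR-10-3p over miR-10-5p was 2.07 ± 0.33 (SD, n = 8) in young and 1.17 ± 0.66 (SD, n = 8) in old libraries. The difference of −0.90 had p = 0.00772 in a two-sided exact permutation test within sex and genotype (adjusted p = 0.0380 over 64 hairpins with both arms listed). In this comparison 25.0% of hairpins were called, 8 with a higher and 8 with a lower ratio in old flies (12.5% each way). miR-10 ranked 28 of 64 by the size of its change, and the median hairpin changed by −0.35. When labels were exchanged only between siblings, the difference had p = 0.0234 and adjusted p = 0.075 (exact permutation, smallest possible p 0.00781), so the call was lost. It was also lost when any 1 library was left out other than an old library of replicate 1, with adjusted p from 0.0152 to 0.128 over the 16 such tests. The change was −1.42 within replicate 2 and −0.38 within replicate 1, and the old libraries of replicate 2 are those with the fewest reads and the most spike-in; the part of these in the result was not tested. The ratio did not pass the test by sex (−0.33, adjusted p = 0.50, exact permutation), where 9.38% of hairpins were called. It did not pass by genotype either (−0.17, adjusted p = 0.856, exact permutation), where 0 hairpins were called and 6 had an unadjusted p under 0.05.

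miR-iab-4-5p was higher in females than in males. It made up 0.0108 and 0.00414% of mapped reads in young wildtype females against 0.00282 and 0.00247% in young wildtype males. Young dFOXO-null females had 0.0148 and 0.010%, and the males 0.00223 and 0.00220%. The females were above the males in both replicates of each genotype. Old wildtype females had 0.00201 and 0.0458%, and old wildtype males 0.00140 and 0.00489%. Old dFOXO-null females had 0.0112 and 0.0313%, and old dFOXO-null males 0.00153 and 0.00318%. Of the 8 female libraries, 6 lay above every male library. The others were old wildtype females of replicate 1, within the male range, and young wildtype females of replicate 2, below only old wildtype males of replicate 2.

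The averaged log2 difference between females and males was 2.53 for miR-iab-4-5p (SE 0.55, 5.80 times, adjusted p = 0.000782, edgeR). It ranked 25 of 208 miRNAs from the most female-biased end, where 21.2% of miRNAs were called as higher in females. Between libraries with the same replicate number the level was higher in females in 8 of 8 comparisons, by 1.44 to 9.83 times. The call was kept in 16 of 16 fits that left out 1 library (log2 difference 1.65 to 2.82), and without all 4 old libraries of replicate 2 the difference was 1.84. The smallest values over all scalings were 1.06 with DESeq2, where the median miRNA was at −1.5, and 1.23 with TMM, where it was at −1.38. The ovary miRNAs above were also higher in females and the testis miRNAs lower, and the part of the gonads in the difference of miR-iab-4-5p was not tested.

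Within single conditions the female bias of miR-iab-4-5p was called in old flies. The log2 difference was 2.95 in old wildtype (SE 1.11, adjusted p = 0.0401, edgeR) and 3.21 in old dFOXO-null flies (SE 1.14, adjusted p = 0.0290, edgeR), where 49.4% and 50.9% of features were called. Adjusted over miRNAs only, neither was called (adjusted p = 0.0931 and 0.0598), and the old wildtype call was also lost with TMM (1.58), DESeq2 (1.15) and spike-in reads as library size (2.36). In old wildtype flies it rested on the females of replicate 2, without which it was −0.61, and it was also lost without the males of replicate 1 (2.28, adjusted p = 0.230). In old dFOXO-null flies it was lost without the females of replicate 2 (2.29, adjusted p = 0.151) or the males of replicate 1 (2.73, adjusted p = 0.171) or 2 (3.79, adjusted p = 0.0617). In young flies it was 1.5 in wildtype (adjusted p = 0.293) and 2.48 in dFOXO-null (adjusted p = 0.0777, edgeR), where 50.0% and 46.4% of features were called. When the fit held the replicate number as a block, the young dFOXO-null difference was called (2.53, adjusted p = 0.0400). An alternative chosen after seeing the data left out the 4 old libraries of replicate 2. The differences were then 1.5 in young wildtype and 2.48 in young dFOXO-null flies. Old dFOXO-null flies were at 2.87 and old wildtype flies at 0.52. Each old condition had 1 library in this fit and the spread came from young flies only, so its calls are not given for single conditions. The sex difference was not shown to depend on age (interaction 1.09, SE 1.04, adjusted p = 0.724) or genotype (0.63, SE 1.04, adjusted p = 0.856, edgeR), where 0 features were called for either and 31 and 32 had an unadjusted p under 0.05.

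The change of miR-iab-4-5p with age ran in opposite directions in the replicates. In replicate 1 it was lower in old than in young siblings in 4 of 4 pairs, at 0.187 to 0.756 times the young level. In replicate 2 it was higher in old siblings in 4 of 4 pairs, by 1.45 to 11.1 times. The widest gap was in old wildtype females, where replicate 1 had 0.00201% (95% Wilson interval 0.00173 to 0.00234) and replicate 2 had 0.0458% (0.0420 to 0.050), far apart beyond counting error. This was not particular to miR-iab-4-5p. Over 318 features the same pair of libraries differed far beyond counting error too, with a chi-square of 4158 per degree of freedom. The averaged change was 0.68 (SE 0.52, adjusted p = 0.314, edgeR), and −0.87 (adjusted p = 0.206) without the old libraries of replicate 2. Replicate 2 differed from replicate 1 in depth and in the age of the young flies by 1 day. Its old libraries also had more spike-in (0.0475 to 0.150% of mapped reads, against 0.00403 to 0.0242% in replicate 1). They had more miR-124-3p as well (0.0245 to 0.0440% against 0.00127 to 0.00898%). The part of these differences in the result was not tested. By genotype the averaged change was −0.03 (SE 0.52, adjusted p = 0.980, edgeR).

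Within single conditions, neither age nor genotype gave a called change of miR-10-3p or miR-iab-4-5p. For age, 0 of 8 tests passed, with adjusted p from 0.648 to 0.985 and log2 changes from −0.59 to 1.67, and 0 of 8 had an unadjusted p under 0.05. In these 4 comparisons 0 of 330 features were called by edgeR, while 28, 33, 29 and 58 had an unadjusted p under 0.05 in wildtype females, wildtype males, dFOXO-null females and dFOXO-null males. For genotype, 0 of 8 tests passed, with adjusted p from 0.540 to 0.999 and log2 changes from −0.83 to 0.73, and again 0 of 8 had an unadjusted p under 0.05. Of all features, 2.73% were called in young females, 0.606% in young males and 0 in old females and old males (39 and 20 features with an unadjusted p under 0.05).

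**Figure D3:**
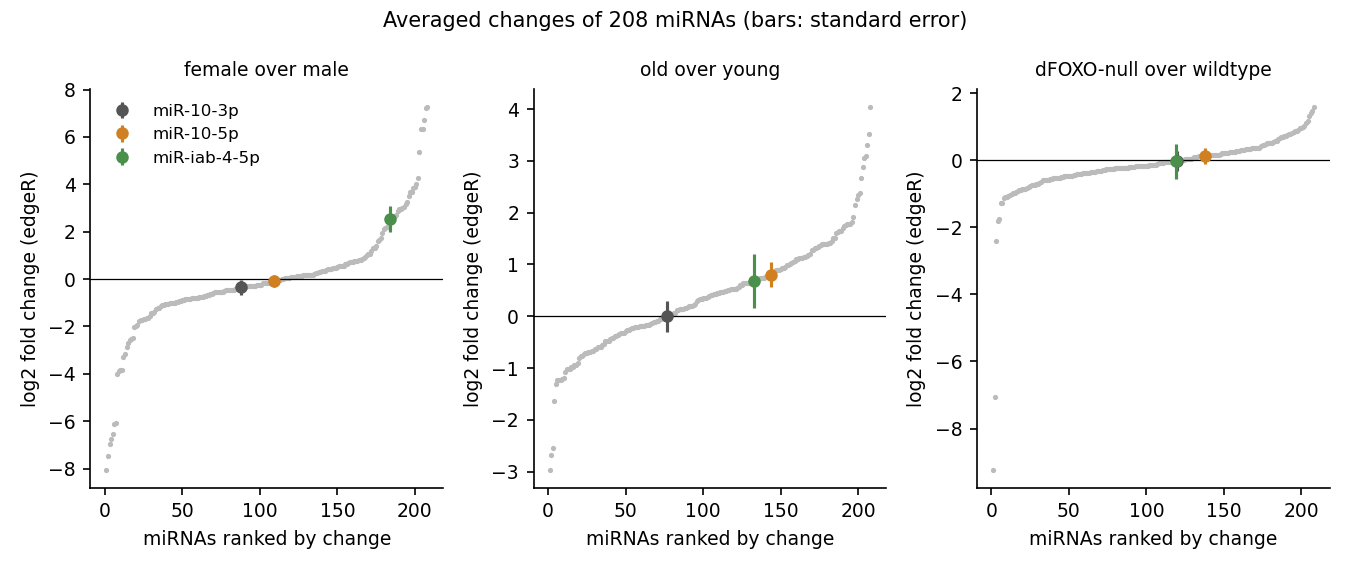
Averaged log2 fold changes of 208 miRNAs in edgeR, ranked from lowest to highest, for females over males, old over young and dFOXO-null over wildtype flies; coloured points with bars are miR-10-3p, miR-10-5p and miR-iab-4-5p with their standard errors. miR-iab-4-5p is at 2.53 by sex, miR-10-5p at 0.80 by age, and all 3 lie between −0.03 and 0.14 by genotype.

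Read length set miR-10-3p apart from the others. Reads of exactly 21 nt, the length typical of small interfering RNAs in the fly, made up 2.09% ± 0.265 of its 19 to 25 nt reads (SD, n = 16), between 1.49 and 2.49% in single libraries. By its mean share it ranked 3 from the lowest of 143 miRNAs with enough reads, whose median was 27.2%. miR-10-5p, from the same hairpin, had 15.4% ± 3.07 (SD, n = 16; 10.8 to 21.4%), and miR-iab-4-5p 13.5% ± 4.24 (SD, n = 16; 8.18 to 23.4%). The ranges of both arms of miR-10 over the libraries did not overlap. Among 21 nt reads alone the 5p arm therefore held 48.7 to 85.6% of the reads of the hairpin, against 14.8 to 49.2% among all reads of 19 to 25 nt.

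**Figure D4:**
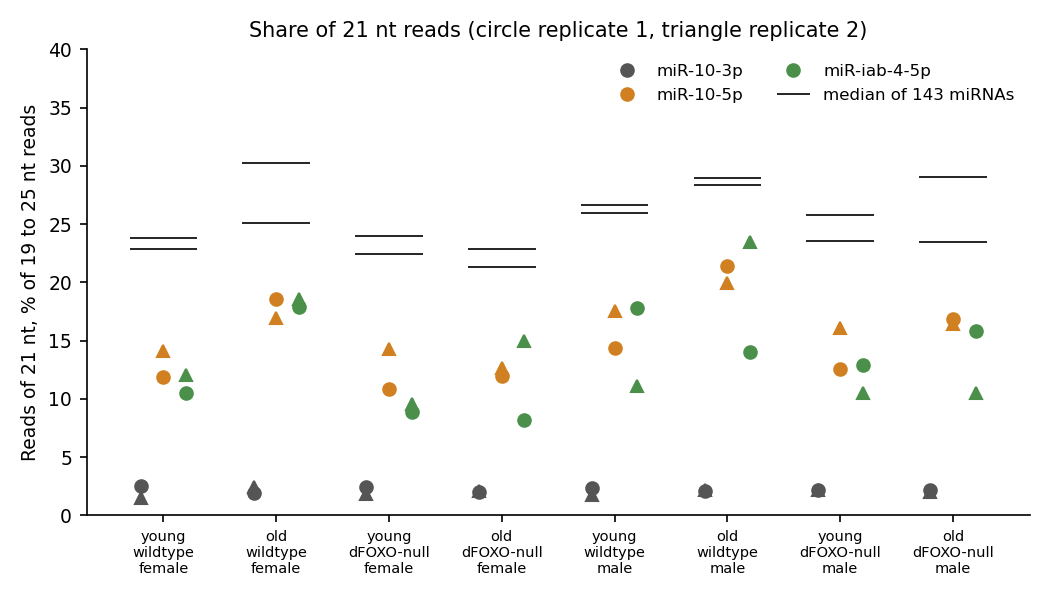
Reads of 21 nt as a percent of 19 to 25 nt reads for miR-10-3p, miR-10-5p and miR-iab-4-5p in each of 16 libraries (circle replicate 1, triangle replicate 2), with the median of 143 miRNAs per library as a black line. miR-10-3p stays between 1.49 and 2.49% in every condition, and the others lie between 8.18 and 23.4%.

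The share of 21 nt reads did not pass the test for either kept miRNA by age, sex or genotype. By age, miR-10-3p differed by 0.03 percentage points (2.11% ± 0.172 in old and 2.08% ± 0.347 in young, SD, n = 8; adjusted p = 0.930, exact permutation). miR-iab-4-5p was at 15.4% ± 4.76 in old and 11.7% ± 2.79 in young libraries (SD, n = 8), a difference of 3.76 points with adjusted p = 0.129 (exact permutation). Its share was higher in old flies in 5 of 8 sibling pairs and lower in 2. All shares of miR-iab-4-5p rested on few reads, with 2 to 102 reads of 21 nt in a library. In old dFOXO-null males of replicate 2 these were 2 of 19 reads (95% Wilson interval 2.94 to 31.4%). miR-10-5p was at 16.8% ± 3.28 and 14.0% ± 2.19 (SD, n = 8), a difference of 2.86 points with adjusted p = 0.0523 (exact permutation). In this comparison 25.9% of 143 miRNAs were called, 28 of them with a higher (19.6%) and 9 with a lower share (6.29%) in old flies, and the median miRNA gained 1.16 points. By sex and by genotype 0 of 143 miRNAs were called, while 22 and 13 had an unadjusted p under 0.05. Among these, miR-10-5p had a lower share in females than in males (13.9 against 16.9%, p = 0.00772, adjusted p = 0.123, exact permutation). It was lower in females in 8 of 8 pairs of libraries with the same replicate number, and when labels were exchanged only within these pairs the adjusted p was 0.0798 (exact permutation). Its share was also lower in dFOXO-null than in wildtype flies (13.9 against 16.8%, p = 0.0185, adjusted p = 0.294), as was that of miR-iab-4-5p (11.4 against 15.7%, p = 0.0247, adjusted p = 0.353, exact permutation).

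Counts of 21 nt reads gave a second view of the same libraries, though not an independent one. miR-iab-4-5p was again higher in females (log2 difference 2.28, SE 0.56, adjusted p = 0.00211, edgeR over 258 features), where 66.3% of features and 45.1% of miRNAs were called, and the call was lost with TMM (1.06, adjusted p = 0.0554). miR-10-5p had an age difference of 0.68 (adjusted p = 0.145, edgeR) at this length, where 9.69% of features were called. miR-10-3p had none called by sex, age or genotype (−0.33, −0.36 and 0.03, adjusted p = 0.440, 0.563 and 0.986, edgeR), and by genotype 6.98% of features were called.

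miR-100-5p belongs to the wider miR-10 family but lies outside the Hox complexes, on chromosome 2L, and in the fly it is made from the same primary transcript as let-7 and miR-125. Its mean level was 0.0282% ± 0.0270 in young and 0.131% ± 0.0789 in old wildtype females (SD, n = 2), and 0.0596% ± 0.0142 and 0.121% ± 0.00543 in wildtype males. Averaged over conditions it rose with age by 1.39 on the log2 scale (SE 0.40, adjusted p = 0.0422, edgeR; −1.23 when scaled by spike-in reads), a call that was kept in 5 of 16 fits that left out 1 library, and lost with TMM (0.86), DESeq2 (0.74) and without the old libraries of replicate 2 (1.09, adjusted p = 0.212). By sex it was at −0.83 in females (adjusted p = 0.0779). Without the old libraries of replicate 2 this was −1.10. The sex difference was called with the replicate number as a block (−1.03, adjusted p = 0.0143, edgeR). It was also called with TMM (−2.10, adjusted p = 0.000134, edgeR) and with DESeq2 (−2.19, adjusted p = 6.23e-09), where the median miRNA was at −1.38 and −1.5. It was at −0.40 in dFOXO-null flies against wildtype (adjusted p = 0.734, edgeR).

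Over the 16 libraries, the miRNAs whose levels ran most like miR-10-3p among 131 with at least 100 reads on average were miR-9a-5p (Pearson r = 0.84), miR-305-3p (0.77) and miR-999-3p (0.77). For miR-iab-4-5p they were miR-305-5p (r = 0.92), miR-995-3p (0.85) and miR-282-5p (0.84). For miR-10-5p they were let-7-3p (r = 0.70), miR-11-5p (0.69) and miR-316-3p (0.63). The lists of 3 miRNAs for both arms of miR-10 shared none, and how often such short lists share a miRNA for other hairpins was not counted. These points share libraries, depth and the sum to which percents are scaled, and the values are given as a description.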

How the data were processed

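Small RNA of 16 libraries was trimmed with Trim Galore and mapped with Bowtie by the authors to known miRNAs and transposons, with at most 1 mismatch, and featureCounts is also named in the submitters' processing notes. Versions are not given in the sources used here. The authors deposited whole-number counts per feature for reads of 19 to 25 nt, for reads of 21 nt and for reads on dm6 transcripts, and the same values as a percent of mapped reads without spike-ins. Percents recomputed here from the counts matched the deposited ones. Reads carry no molecular identifiers that were used here, so the Wilson 95% intervals cover counting error only.

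Counts with a mean of at least 5 were tested with edgeR 4.0.16 (quasi-likelihood) in R 4.3.3, in 1 fit of all 16 libraries with 8 condition terms, with mapped reads as library size. P-values were adjusted by Benjamini-Hochberg across all 330 features. Calls are at an adjusted p under 0.05. Arm ratios (pseudocount 1; both arms with a mean of at least 5 counts) and 21 nt shares (a mean of at least 5 counts of 21 nt) were tested by two-sided exact permutation within the other factors (1296 permutations, smallest p 0.00154). These were adjusted over all 64 hairpins or 143 miRNAs for each factor, and not, as first planned, over the members and factors. DESeq2 1.42.0 was an alternative. Fits were tested on simulated data.

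Deviations from the condition means were correlated between siblings of both ages (r = 0.177 to 0.338), and between same-numbered libraries of the sexes (0.344 to 0.646) and genotypes (0.222 to 0.658), so the replicate number was taken as a block where stated. Siblings come from the labels, the other pairings from these correlations only. The study calls the replicates biological, and their young flies differed in age by a day; p-values measure the spread between these libraries. Named were the members, their other arms, miR-100-5p of the wider miR-10 family, and the 3 miRNAs most correlated with each. The members and lists were chosen with earlier results of these data known.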

Additional observations from a re-analysis of the deposited data

How the results depend on the processing

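Values are log2 differences unless a unit is given. The higher level of miR-iab-4-5p in females kept its direction and call in 9 of 9 other settings (1.06 to 3.17) and in 16 of 16 fits without 1 library (1.65 to 2.82), and with 21 nt counts in 16 of 16 such fits (1.53 to 2.61), but not with TMM at 21 nt (1.06, adjusted p = 0.0554, edgeR). The other settings include the fit without the old libraries of replicate 2, where the spread came from young flies only.

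With TMM, the sex difference of miR-10-3p was −1.49 and called, that by age −0.29 and by genotype 0.057, and those by sex in young and old wildtype −1.57 and −0.75. For miR-iab-4-5p the difference by age was then −0.036, by genotype 0.18 and by sex in young wildtype −0.11. With DESeq2 the sex difference of miR-10-3p was −1.52 and called, that by age −0.37, by genotype 0.037, and by sex in young and old wildtype −1.34 and −0.73, while miR-iab-4-5p was at −0.17 by age and 0.21 by genotype. With spike-in reads as library size miR-10-3p was at 0.74 by sex, 0.37 and 1.21 by sex in young and old dFOXO-null, −2.29 by age (adjusted p = 0.0308) and 0.16 by genotype. miR-iab-4-5p was then at −3.09 by age (adjusted p = 0.00337) and 0.59 by genotype, miR-10-5p at 0.94 by sex and −1.81 by age, and miR-100-5p at −1.23 by age and 0.16 by genotype. The median miRNA by age was −2.45 there, and the cause of this shift was not tested. With reads on miRNAs as library size miR-10-3p was at −0.0021 by age and miR-10-5p at 0.15 by sex. With both arms summed, which applied to miR-10 only, the difference by genotype was 0.018.

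With the replicate number as a block miR-10-3p was at −0.11 by age (also −0.11 with the block within genotype), miR-iab-4-5p at 0.019 by genotype, and the arm ratio by age at −0.90 (adjusted p = 0.075). The block changed no other averaged call of miR-10-3p, miR-10-5p or miR-iab-4-5p, and made the sex difference of miR-100-5p called (−1.03, adjusted p = 0.0143). An alternative chosen after seeing the data left out the 4 old libraries of replicate 2. It gave miR-iab-4-5p −0.87 by age and 0.77 by genotype, and miR-10-5p 0.067 by sex and −0.045 by genotype. Under the log2 ratio of percents, which sets a miRNA's 21 nt share against that of the whole library, the age differences were −0.40 for miR-10-3p, −0.17 for miR-10-5p and −0.031 for miR-iab-4-5p, and the sex difference of miR-10-3p was 0.016. The cause of the other changes was not tested.

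Without 1 library at a time, miR-10-3p ranged from −0.64 (called, without old wildtype females of replicate 1) to −0.19 by sex, from −0.29 to 0.16 by age and from −0.21 to 0.26 by genotype. In old wildtype flies its sex difference ranged from −1.06 to 0.75. For miR-iab-4-5p the range was −0.22 to 0.91 by age, −0.27 to 0.86 by genotype and −0.61 to 4.08 by sex in old wildtype. miR-10-5p ranged from −0.25 to 0.040 by sex and from 0.63 to 0.92 by age, and miR-100-5p from −0.73 to 0.0080 by genotype. The arm ratio ranged from −1.07 to −0.74 by age and from −0.33 to 0.0019 by genotype. The 21 nt share of miR-10-3p ranged from −0.0998 to 0.151 points by age, −0.142 to 0.109 by sex and −0.114 to 0.137 by genotype. With 21 nt counts the ranges were −0.23 to 0.76 for miR-iab-4-5p by age and −0.69 to 0.40 by genotype, −0.20 to 0.37 for miR-10-3p by genotype and −0.30 to 0.17 for miR-10-5p by genotype.

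Among miRNAs, 94 were called by sex, and 86 with adjustment over miRNAs only, which leaves other features untested. Over all features, 209 were called by sex, 284 with TMM and 294 with DESeq2. By age 35 were called, 13 without the old libraries of replicate 2, 28 with TMM or a mean of at least 50 counts, 59 with DESeq2, 62 with the block and 284 with spike-in reads. By genotype 8 were called, 12 with TMM, 25 with DESeq2, 26 without the old libraries of replicate 2, 5 with a mean of at least 50 counts or adjustment over miRNAs, 4 with the block within genotype and 2 with spike-in reads. Tests that involve miR-iab-8, including its ratio to miR-iab-4, were not run. Of the entries described, miR-iab-4-5p had the fewest reads, with 19 in the shallowest library.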
